A study of Homo sapiens with 12 samples.

Results

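The RNA of HCT116 cells was examined for 6 small noncoding RNAs, RN7SL1, RN7SL2, RN7SL3, RN7SK, RMRP, and RPPH1. The members were taken by gene symbol, and the set was chosen by abundance, that is, by the share of counts such RNAs took in these libraries, so their levels are given as a description, and nothing is read from their calls in the test across genes. The 6 symbols stood in 8 of the 60708 rows of the count tables, because RMRP and RPPH1 each had 2 rows. HCT116 is a human colorectal carcinoma cell line, labelled wild type and grown in RPMI1640 with fetal bovine serum. One group of 3 libraries came from cells treated with oligomycin A (OA), which blocks ATP synthase in mitochondria, and 3 libraries (OActrl) came from cells given the solvent DMSO. A second group of 3 came from cells treated with tunicamycin (TN), an inhibitor of protein N-glycosylation that causes stress of the endoplasmic reticulum, again with 3 DMSO libraries of its own (TNctrl). Both agents were given at 5 µg/mL for 24 h according to the sample labels, and the study's methods give another dose for OA. The labels call the libraries biological replicates of 1 cell line. The comparisons ask how each stressor moved the share of the library held by these RNAs, and how that share moved the scaling of every other gene.

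All 6 members are short RNAs made by RNA polymerase III (Pol III), which transcribes small structural RNAs. RN7SL1, RN7SL2, and RN7SL3 encode 7SL, the RNA backbone of the signal recognition particle (SRP), which carries ribosomes that are making secreted or membrane proteins to the endoplasmic reticulum. RN7SK encodes 7SK, the RNA that holds the transcription elongation factor P-TEFb in an inactive complex with HEXIM proteins. RMRP and RPPH1 are the RNA parts of RNase MRP and RNase P, which process ribosomal RNA precursors and tRNA precursors, respectively. RNAs of this kind lack a poly(A) tail, and the labels name a stranded kit for total RNA with depletion of ribosomal RNA, which keeps them.

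The libraries held 9884124 to 24983573 counts, and a floor of 3 counts corresponded to 0.120 to 0.304 CPM (counts scaled to a common library size). The colon epithelial origin was checked with 7 markers, of which VIL1 was at or under the floor in every library. The summed level of the 7 ranged from 4517 to 6140 CPM in OActrl, from 5502 to 6652 in OA, from 4433 to 5607 in TNctrl, and from 4829 to 6749 in TN. Of the markers of other cells, PTPRC and CD3E of leukocytes, DCN of fibroblasts, and CDH5 of endothelial cells were at or under the floor in every library, and the rest were low. The 4 leukocyte markers summed to at most 0.058 CPM in OActrl, 0 in OA, 0.713 in TNctrl, and 0.502 in TN. The 3 fibroblast markers summed to 1.16 to 2.44 CPM in OActrl and 3.34 to 9.04 in OA, and to 1.75 to 3.55 in TNctrl and 1.45 to 3.26 in TN. The 3 endothelial markers summed to 0.174 to 0.400 CPM in OActrl, 0.364 to 1.42 in OA, 0.475 to 0.982 in TNctrl, and 0.167 to 0.521 in TN. Their part in the results was not tested.

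Of the 6 members, only RN7SL1 and RN7SL3 had counts above the floor. RN7SL1 was the most abundant row of the tables, with a mean of 9.39% of counts over the 12 libraries. RN7SL3 was sixth with 0.579%, behind the small nucleolar RNA SNORD3A (2.44%), EEF1A1 (2.18%), GAPDH (0.707%), and RPLP0 (0.687%). RN7SL2, RN7SK, and both rows of RMRP held 0 counts in all 12 libraries. RPPH1 held 6 counts in all, at most 2 in any library, and none in its second row. The measured part of the set was therefore 7SL RNA as counted on 2 of its 3 genes.

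The 3 genes of 7SL differ at few bases, which bears on how reads can be divided among them. RN7SL1 stands on the plus strand, and RN7SL3 and RN7SL2 are both on the minus strand of the same chromosome in hg38 with GENCODE 44. Identity to RN7SL1 over aligned bases was 98.7% for RN7SL2 and 97.7% for RN7SL3.

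The genes differed in the share of stretches that occur once in the genome. Of all 50-base stretches on either strand, 15.6% of those in RN7SL1, 13.1% of those in RN7SL2, and 62.0% of those in RN7SL3 occurred once on the 25 chromosomes searched. For 100-base stretches, the shares were 25.5%, 17.9%, and 88.0%. Of the 50-base stretches of RN7SL1, 63.2% are also in RN7SL2 and 34.4% in RN7SL3. RN7SK had 22.9% of 50-base stretches occurring once, whereas all those of RMRP and RPPH1 did. RN7SL1 held the most counts, and RN7SL2 and RMRP held none. The part of such stretches in the counts was not tested.

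The annotation of the rows at 0 was compared with that of the rows with counts. All bases of RN7SL2 lie within exons of RP11-596C23.6 on the same strand, and that row held a trace, with group means of 3.15e-05% to 5.61e-05% of counts. All bases of RN7SK at chr6:52995621-52995948 lie within a second row named 7SK, which was also at 0 in every library. The smaller row of RPPH1 at chr14:20343075-20343407 lies within its larger row, and RMRP at chr9:35657754-35658017 stands in 2 rows, of which 1 identifier has no counterpart in GENCODE 44. RN7SL1 and RN7SL3 share no exon bases with another row on either strand. Among 5113 rows of small noncoding RNAs, 395 of the 401 that lie wholly within another row on the same strand were at 0 (98.5%), against 3266 of 4443 that share no bases on either strand (73.5%). The zeros of RN7SL2, RN7SK, and RMRP and the 6 counts of RPPH1 describe these tables, and the part of overlapping rows in them was not tested. The counting gives no level of these 4 RNAs in the cells.

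The share of RN7SL1 was higher in every OA library than in every OActrl library. RN7SL1 took 6.02%, 8.11%, and 7.23% of counts in OActrl 1, 2, and 3. It took 8.40%, 17.9%, and 12.5% in OA 1, 2, and 3. The lowest OA library was thus just above the highest OActrl library, and OA 2 stood far above the rest. The mean was 7.12% ± 1.05 in OActrl and 12.9% ± 4.79 in OA (SD, n = 3), a difference of 5.81 percentage points. The widest 95% Wilson interval of any RN7SL1 share was 0.0412 points, which covers counting error only and does not bear on the spread between libraries.

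TN gave the same order with less spread. RN7SL1 took 7.50%, 6.29%, and 6.23% of counts in TNctrl 1, 2, and 3. It took 13.3%, 9.22%, and 10.0% in TN 1, 2, and 3. The groups did not overlap, and TN 1 was the highest. The mean was 6.68% ± 0.716 in TNctrl and 10.8% ± 2.15 in TN (SD, n = 3), a difference of 4.16 points. Within replicate numbers, by which the TN libraries were treated as paired, the share in TN was 1.77, 1.47, and 1.61 times that in TNctrl. Fewer molecules of all other RNAs and more molecules of 7SL cannot be told apart from such shares, and neither can changes in cell number and in RNA per cell.

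**Figure D1:**
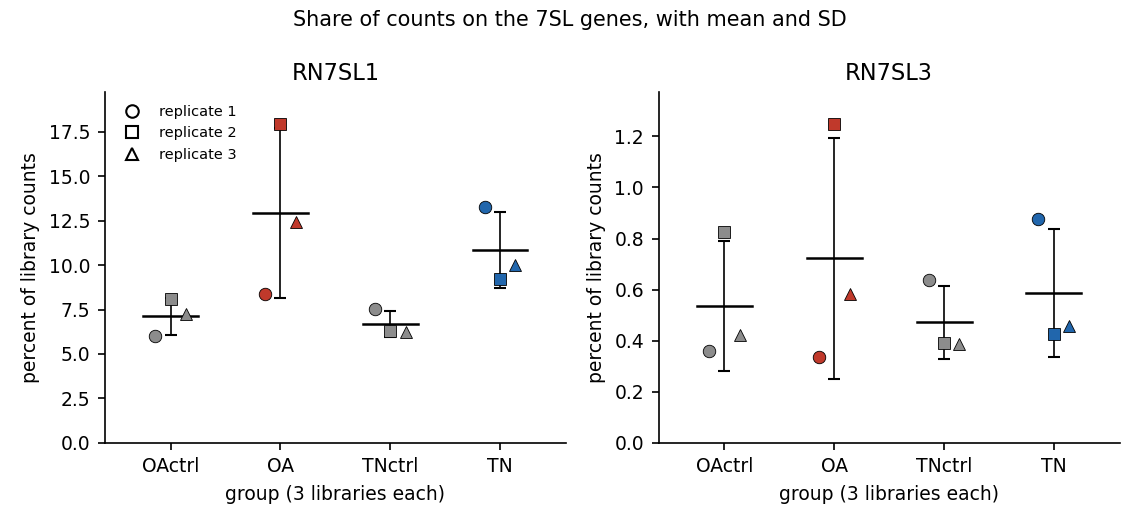
Percent of library counts on RN7SL1 (left) and RN7SL3 (right) in the 4 groups, each point 1 library, with the group mean as a line and the SD as a bar. RN7SL1 in OA and TN lies above its own DMSO libraries without overlap, from 8.40% to 17.9% and from 9.22% to 13.3%, whereas RN7SL3 overlaps between treated and DMSO libraries.

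RN7SL3 was about an order of magnitude less abundant and did not separate the groups. It took 0.359%, 0.826%, and 0.421% of counts in OActrl 1, 2, and 3. It took 0.337%, 1.25%, and 0.585% in OA 1, 2, and 3. The lowest of these 6 values was an OA library. In TNctrl 1, 2, and 3 it took 0.637%, 0.391%, and 0.388%, and in TN 1, 2, and 3 it took 0.875%, 0.425%, and 0.458%. The mean was 0.535% ± 0.253 in OActrl and 0.723% ± 0.472 in OA, and 0.472% ± 0.143 in TNctrl and 0.586% ± 0.251 in TN (SD, n = 3). The libraries high in RN7SL3, namely OActrl 2, OA 2, TNctrl 1, and TN 1, were also the highest of their groups in RN7SL1.

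The 6 members together therefore followed RN7SL1. Their share was 7.66% ± 1.28 in OActrl and 13.7% ± 5.26 in OA, a difference of 6.0 points, and the groups overlapped because OA 1 (8.74%) was below OActrl 2 (8.93%). It was 7.15% ± 0.859 in TNctrl and 11.4% ± 2.40 in TN (SD, n = 3), a difference of 4.28 points without overlap. Without RN7SL1 in the counts and in the totals, the differences were 0.274 points for OA and 0.156 points for TN. Leaving out OA 2 lowered the difference of OA to 3.23 points, and leaving out TN 1 lowered that of TN to 2.91 points.

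Relative to the other genes, the level of RN7SL1 was higher by a log2 fold change of 1.17 (SE 0.43) in OA and 0.89 (SE 0.29) in TN. These values come from counts scaled by TMM, which sets libraries to each other by a trimmed mean of gene ratios. On that scale RN7SL1 was at 54381, 79907, and 64572 CPM in OActrl 1, 2, and 3 and at 75610, 245195, and 127382 CPM in OA 1, 2, and 3. OA 1 was below OActrl 2, so the OA groups that were apart in share of counts overlapped in CPM. In TNctrl 1, 2, and 3 it was at 75116, 57136, and 58209 CPM, and in TN 1, 2, and 3 at 166782, 87671, and 98820 CPM, without overlap.

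RN7SL3 had a TMM log2 fold change of 0.78 (SE 0.62) in OA and 0.53 (SE 0.44) in TN. It was at 3239, 8136, and 3761 CPM in OActrl 1, 2, and 3 and at 3033, 17066, and 5980 CPM in OA 1, 2, and 3. It was at 6374, 3546, and 3620 CPM in TNctrl 1, 2, and 3 and at 10993, 4041, and 4516 CPM in TN 1, 2, and 3. Treated and DMSO libraries overlapped for both stressors. Without OA 2 the value in OA was -0.20, and without TN 1 the unpaired value in TN was -0.04. The TN libraries were treated as paired by replicate number. Within numbers, the share of RN7SL3 in TN was 1.37, 1.09, and 1.18 times that in TNctrl. The log2 fold change with the replicate block was 0.43 (SE 0.13). RN7SL1 kept its direction without these libraries, at 0.59 without OA 2 and 0.59 without TN 1.

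Of the 6 members, 2 entered the test across genes, since the filter on low counts removed the others. Neither was called at an adjusted p under 0.05 by edgeR's quasi-likelihood test, where 4.48% of 14681 genes were called in OA and 6.99% of 14432 in TN. In each comparison 1 of them had an unadjusted p under 0.05, beside 23.3% of genes in OA and 24.3% in TN. DESeq2 called 0 in OA, beside 13.1% of genes, and 1 in TN, beside 15.0%. With the replicate number as a block, both were called in TN, beside 27.1% of genes. Treated libraries were above DMSO libraries without overlap for 0 of the 2 in OA, beside 16.3% of genes, and for 1 of the 2 in TN, beside 15.9%. Because the set was chosen by the level of such RNAs, nothing is read from these counts.

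How 7SL counts divided between the 2 genes was not used to choose them. The planned measure, the share of RN7SL2, was 0 in every library, and RN7SL3 was taken in its place after the data were seen. RN7SL3 made up 5.62%, 9.24%, and 5.50% of 7SL counts in OActrl 1, 2, and 3 and 3.86%, 6.51%, and 4.48% in OA 1, 2, and 3. The difference of the means was -1.84 points (exact permutation test, two-sided, p = 0.3, n = 3 per group). It made up 7.82%, 5.84%, and 5.85% in TNctrl 1, 2, and 3 and 6.18%, 4.41%, and 4.37% in TN 1, 2, and 3. Here the difference was -1.52 points (exact permutation test, two-sided, p = 0.3, n = 3 per group). The smallest p that 3 against 3 libraries allow is 0.1, so no difference could have passed 0.05. In TN, where libraries were treated as paired by replicate number, the share of RN7SL3 was lower in the treated library of all 3 pairs. The same order held within all 3 replicate numbers of OA, which were not treated as pairs.

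**Figure D2:**
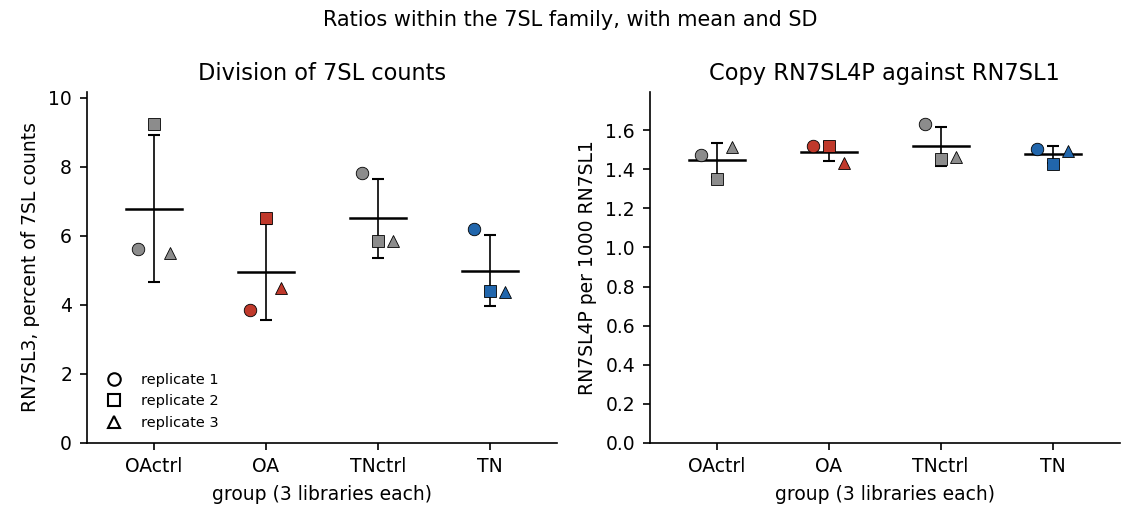
RN7SL3 as a percent of 7SL counts (left) and counts of the copy RN7SL4P per 1000 of RN7SL1 (right), each point 1 library, with group means as lines and SD as bars. RN7SL3 ranges from 3.86% to 9.24% with overlap between treated and DMSO libraries, and RN7SL4P stays between 1.35 and 1.63 in all 12 libraries.

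The genome also holds many copies of 7SL and 7SK that are annotated as pseudogenes. The tables held 677 rows named as copies of 7SL, which took 0.0142% ± 0.0012 of counts in OActrl, 0.0239% ± 0.0082 in OA, 0.0143% ± 0.0016 in TNctrl, and 0.0207% ± 0.0040 in TN (SD, n = 3). Most of these counts stood on RN7SL4P, which follows RN7SL1 at 1.35 to 1.63 counts per 1000. Of the 50-base stretches of RN7SL4P, 58.1% are also in RN7SL2, 34.1% in RN7SL1, and 14.2% in RN7SL3. Of the same stretches, 41.9% occurred once in the genome. Its reads and those of the 7SL genes cannot be told apart outside such stretches, so its level is uncertain.

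Most tested copies of 7SL had positive log2 fold changes, as RN7SL1 did, but the main test called none of them. RN7SL4P was at 80.2, 108, and 97.9 CPM in OActrl 1, 2, and 3 and at 115, 372, and 183 CPM in OA 1, 2, and 3. It was at 123, 83.1, and 85.3 CPM in TNctrl 1, 2, and 3 and at 251, 125, and 148 CPM in TN 1, 2, and 3. The groups did not overlap for either stressor, and the log2 fold changes were 1.23 (SE 0.41) in OA and 0.85 (SE 0.32) in TN. In OA, 8 of 11 tested copies of 7SL had a positive log2 fold change, with a median of 0.84, where all tested genes had a median of -0.02. None of the 11 was called by edgeR, beside 4.48% of all tested genes. An unadjusted p under 0.05 was found for 3, beside 23.3% of all tested genes, and DESeq2 called 2, beside 13.1%. In TN, 7 of 8 were positive, with a median of 0.78 where all tested genes had -0.03. With the replicate block 2 of 8 were called, both higher. Among all tested genes, 11.8% were called higher with the block and 27.1% in either direction. Without the block edgeR and DESeq2 called 0, beside 6.99% and 15.0% of all tested genes. Of the 8, 1 had an unadjusted p under 0.05, beside 24.3% of all tested genes.

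Of the 7SK copies, RN7SKP80 and RN7SKP255 had the most counts. They are the rows nearest to a readout of 7SK in these tables, but they stand at other loci and 65.8% and 70.5% of their 50-base stretches occur once in the genome. RN7SKP80 was at 122, 140, and 189 CPM in OActrl 1, 2, and 3 and at 181, 533, and 299.8 CPM in OA 1, 2, and 3. It was at 210.3, 159, and 115 CPM in TNctrl 1, 2, and 3 and at 394, 190.0, and 218 CPM in TN 1, 2, and 3. Both sets overlapped, with log2 fold changes of 1.17 (SE 0.40) in OA and 0.73 (SE 0.35) in TN. All 10 tested copies of 7SK in OA and all 11 in TN had positive log2 fold changes, with medians of 0.88 and 0.87. None was called by edgeR, beside 4.48% of all tested genes in OA and 6.99% in TN. An unadjusted p under 0.05 was found for 3 in OA and 1 in TN, beside 23.3% and 24.3% of all tested genes. DESeq2 called 1 in OA and 0 in TN, beside 13.1% and 15.0%. With the replicate block 5 of 11 were called in TN, all higher. The block gave calls for 27.1% of all tested genes in either direction, and 11.8% were called higher.

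The spread of 7SL among libraries of 1 group moved with the GC content of the genes that were high in each library. Genes were split by the GC content of their longest transcript, and the median deviation of the 20% of genes richest in GC (57.8% and over in the OA comparison) minus that of the 20% poorest (40.6% and under) was taken in each library. The GC content of RN7SL1 is 62.9% and that of RN7SL3 62.2%. In OA 2 the difference between these gene groups was 1.03 on the log2 scale and RN7SL1 stood 0.88 above its group mean. In OA 1 the difference was -1.07 and RN7SL1 stood at -0.82. In TN 1 the difference was 1.40 and RN7SL1 stood 0.56 above its group mean. The libraries that carried the highest 7SL levels of their groups were therefore also those with the most counts on GC-rich genes. Treated and DMSO groups both held such libraries, as OActrl 2 and TNctrl 1 had differences of 0.77 and 0.70.

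**Figure D3:**
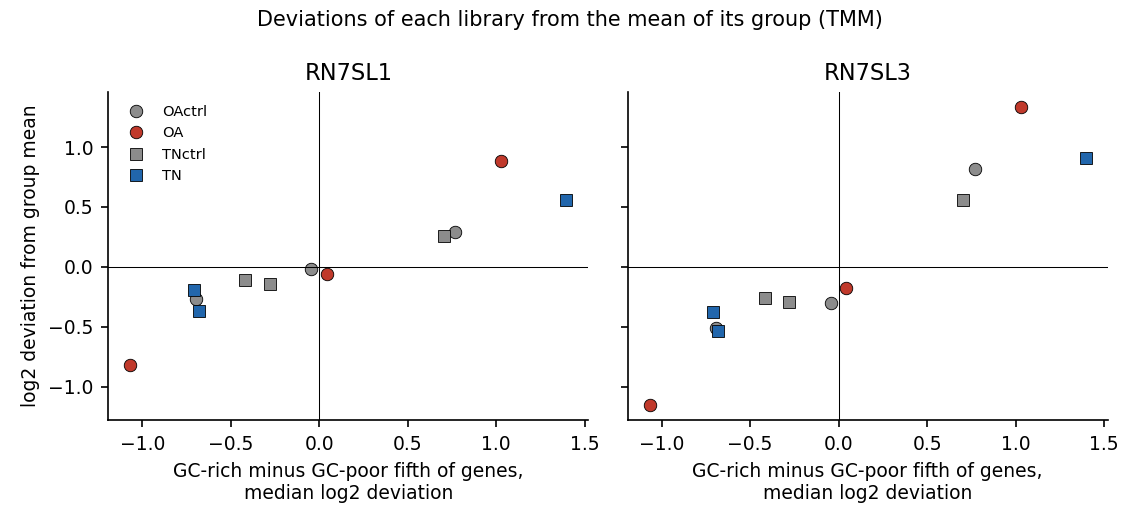
Log2 deviation of RN7SL1 (left) and RN7SL3 (right) from the group mean against the median deviation of GC-rich minus GC-poor genes, each point 1 of the 12 libraries. OActrl 2, OA 2, TNctrl 1, and TN 1, at 0.70 to 1.40 on the x axis, have positive 7SL deviations, OA 3 at 0.04 has slightly negative ones, and OA 1 at -1.07 has the lowest.

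Offsets for GC content were fitted in each library and added after the data were seen. They used deviations from the mean of treated and DMSO libraries together. They thus also took out any difference between treated and DMSO libraries that followed GC content. With these offsets, RN7SL1 had a log2 fold change of 0.96 (SE 0.31) in OA and 0.74 (SE 0.20) in TN. With offsets and the replicate block the values were 0.88 (SE 0.21) and 0.73 (SE 0.04). RN7SL3 was at 0.56 (SE 0.47) and 0.32 (SE 0.25) with offsets alone. The part of GC content in the spread of 7SL was not tested further.

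The genes whose levels were most like RN7SL1 over the 12 libraries were the copy RN7SL4P, with a Pearson correlation of 0.995 of log2 CPM, AKR1A1 (0.988), ROBO3 (0.987), C12orf57 (0.985), and HAX1 (0.985), among 8990 genes with at least 10 CPM. AKR1A1 is an aldo-keto reductase, ROBO3 an axon guidance receptor, and HAX1 a mitochondrial regulator of cell death. The correlation was 0.803 for SNORD3A and 0.852 for RN7SL3, which ranked 839th. For deviations from group means alone, RN7SL3 reached 0.979. The points share library preparation and depth, and the libraries of each group share their treatment, so these values describe the tables.

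The share of the members shifted the scaling of all other genes. Counts outside the 6 members made up 80.8% of OA 2, 85.9% of TN 1, and 87.0% to 93.6% of the others. When counts were scaled to library totals, the median fold change over the tested genes was -0.23 on the log2 scale in OA and -0.18 in TN. When the members were taken out of the totals, it was -0.13 and -0.11. Leaving out SNORD3A as well gave -0.11 and -0.08, and TMM gave -0.02 and -0.03. The members thus accounted for 44.7% of the shift between total scaling and TMM in OA and for 44.4% in TN. Scaling to ACTB moved the median the other way, to 0.42 in OA and 0.30 in TN.

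OA 2 and TN 1, the libraries with the largest share on the members, had the lowest TMM factors with and without the members. The factor was 0.732 in OA 2, where the members held 19.2% of counts, and 0.796 in TN 1, where they held 14.1%. OA 3, with 13.04%, had a factor of 0.977. The other 9 libraries had members at 6.38% to 10.5% and factors of 0.999 to 1.12. With the members taken out and the same reference library, the factor was 0.808 in OA 2 and 0.841 in TN 1, and those of the other 10 libraries were 0.986 to 1.09. TMM trimmed both RN7SL1 and RN7SL3 wherever a library was set against the reference library, so that taking the members out of the table left the fold changes nearly as they were. In OA, 658 genes were called with and without the members. In TN, the call count went from 1009 to 1091, because the reference library changed from TNctrl 1 to TN 3, and with the same reference it was 1009 again.

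**Figure D4:**
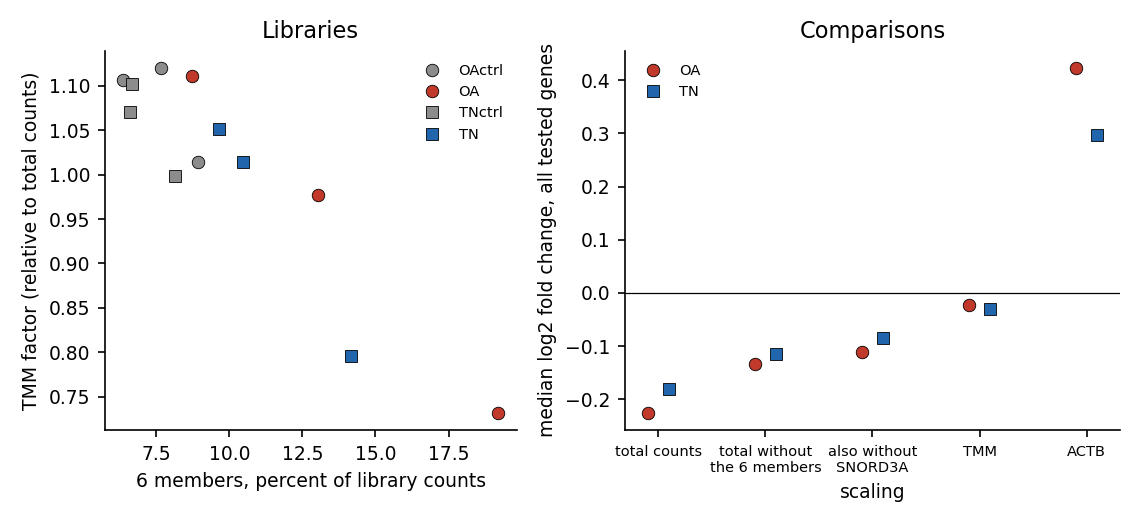
Left, TMM factor of each of the 12 libraries against the percent of counts on the 6 members. Right, median log2 fold change over the tested genes under 5 scalings, which moves from -0.23 (OA) and -0.18 (TN) under total counts to near 0 under TMM and above 0 under scaling to ACTB.

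How many genes were called higher or lower differed between scalings. Under TMM, 405 genes were called higher and 253 lower in OA, and under total counts 352 and 396. Taking the members out of the totals gave 380 higher and 309 lower, and scaling to ACTB gave 1341 higher and 84 lower. In TN, 527 were called higher and 482 lower under TMM, 529 and 875 under total counts, and 584 and 730 without the members in the totals. Scaling to ACTB gave 1198 higher and 220 lower in TN. With the replicate block, which treats the TN libraries as paired by number, TMM gave 1705 higher and 2210 lower. Under total counts, 1657 of the tested genes in OA (11.3%) and 1357 in TN (9.40%) had another sign than under TMM. None of them was called under TMM. Scaling moves all genes of a library alike, so that result was largely fixed and nothing is read from it.

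No direction was established for GAPDH under TMM or total counts. GAPDH, a glycolytic enzyme often used as a reference, had a log2 fold change of 0.05 (SE 0.33) in OA under TMM and -0.22 under total counts, and 0.12 (SE 0.38) in TN under TMM and -0.10 under total counts. ACTB was at -0.49 (SE 0.24) in OA and -0.35 (SE 0.24) in TN under TMM and was not called in either. The nuclear long noncoding RNA MALAT1 had a positive log2 fold change under all scalings tried, with 1.60 (SE 0.31, adjusted p = 0.0348) in OA and 1.49 (SE 0.32, adjusted p = 0.0347) in TN by edgeR, but it was not called in either under total counts, with or without the members in the totals, nor under scaling to ACTB in TN. Its neighbour NEAT1, the scaffold of paraspeckles, rose by 1.79 (SE 0.37, adjusted p = 0.0396) in OA and by 1.22 (SE 0.19, adjusted p = 0.0136) in TN. In OA, both calls were lost under total counts, with or without the members in the totals, and without OActrl 1, OActrl 2, OActrl 3, or OA 3. In TN, both were lost without TNctrl 2, TNctrl 3, TN 2, or TN 3, and that of MALAT1 also without TNctrl 1. Of the mitochondrial ribosomal RNAs, MT-RNR1 was too low to test. MT-RNR2 had a log2 fold change of 1.76 (SE 0.40, adjusted p = 0.0477 by edgeR) in OA, from 0.0012% of counts in OActrl to 0.0033% in OA. The libraries were depleted of ribosomal RNA, so these counts give no level of mitochondrial ribosomal RNA in the cells. In TN, MT-RNR2 was at 0.61 (SE 0.35) with overlap and was not called with or without the replicate block. The call in OA was lost under total counts, with or without the members in the totals, and without OActrl 1, OActrl 2, OActrl 3, OA 2, or OA 3.

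SNORD3A, the U3 small nucleolar RNA that takes part in ribosomal RNA processing, was the other small RNA with a large share of counts. It took 1.93%, 1.44%, and 1.59% of counts in OActrl 1, 2, and 3 and 2.20%, 3.12%, and 3.33% in OA 1, 2, and 3. It took 1.49%, 1.32%, and 2.47% in TNctrl 1, 2, and 3 and 3.90%, 2.78%, and 3.75% in TN 1, 2, and 3. Treated libraries were above their DMSO libraries without overlap in both comparisons. The log2 fold change was 1.08 (SE 0.32, adjusted p = 0.0980 by edgeR) in OA and 1.17 (SE 0.33, adjusted p = 0.0768 by edgeR) in TN, and SNORD3A was called in TN with the replicate block.

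A list of 42 other small noncoding RNAs was counted unevenly. Of the 42, 9 were at 0 in all 12 libraries, 10 held 1 to 100 counts in all, and 23 held more. RNU2-1, the U2 spliceosomal RNA, SNORD118 (U8), and RNU7-1 (U7) were among those at 0, whereas SCARNA7, SCARNA5, and SCARNA6, guide RNAs of Cajal bodies, and RNU4-1 and RNU4-2, the U4 spliceosomal RNAs, held 14624 to 45588 counts each in all. In OA, 23 were tested, and 14 had positive log2 fold changes with a median of 0.40. None was called by edgeR, beside 4.48% of all tested genes, whereas 8 had an unadjusted p under 0.05, beside 23.3%. DESeq2 called 8, all higher, where it called 7.82% of genes higher. In TN, 22 were tested, and 10 were positive with a median of -0.05. Again edgeR called 0, beside 6.99% of all tested genes. However, 9 had an unadjusted p under 0.05, 7 of them higher and 2 lower, beside 24.3% of all tested genes. DESeq2 called 6, all higher, where it called 7.83% of genes higher. With the replicate block 7 of 22 were called higher in TN, where 11.8% of all tested genes were.

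RNU4-2 had log2 fold changes of 1.44 (SE 0.46) in OA and 1.63 (SE 0.41) in TN. It was at 93.7, 23.2, and 63.2 CPM in OActrl 1, 2, and 3 and at 139, 165, and 185 CPM in OA 1, 2, and 3. It was at 51.1, 33.8, and 59.4 CPM in TNctrl 1, 2, and 3 and at 235, 84.1, and 129 CPM in TN 1, 2, and 3. The groups were apart in both comparisons, although OActrl 2, the DMSO library highest in 7SL, was the lowest in RNU4-2. SCARNA5 and SCARNA7 were also apart in both, with 1.40 (SE 0.35) and 1.12 (SE 0.26) in OA and 1.01 (SE 0.32) and 0.93 (SE 0.25) in TN. The 7 called in TN with the block were RNU4-1, RNU4-2, SCARNA5, SCARNA6, SCARNA7, SNORD3A, and SNORD3C.

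The proteins of the SRP and the subunits of its receptor were taken as 1 list. Of 8 SRP proteins and receptor subunits, 0 were called by edgeR in either comparison, beside 4.48% of all tested genes in OA and 6.99% in TN. The medians were -0.04 in OA and -0.0025 in TN, beside -0.02 and -0.03 over all tested genes. In each comparison 2 of 8 had an unadjusted p under 0.05, near the 23.3% and 24.3% of all tested genes. DESeq2 called 0 in OA and 2 in TN, beside 13.1% and 15.0%. The largest positive values were those of the 2 subunits of the SRP receptor, which docks the particle at the endoplasmic reticulum. SRPRB was at 134, 169, and 137 CPM in OActrl 1, 2, and 3 and at 162, 567, and 203 CPM in OA 1, 2, and 3, a log2 fold change of 1.08 (SE 0.46) with overlap. SRPRA was at 1.15 (SE 0.43) in OA without overlap. In TN both were without overlap, SRPRB at 0.75 (SE 0.24) and SRPRA at 0.58 (SE 0.19). SRP9, which binds the Alu domain of 7SL with SRP14, was at -1.21 (SE 0.64) in OA and -0.66 (SE 0.60) in TN, and SRP14 was at -0.23 (SE 0.22) and -0.34 (SE 0.23). With the replicate block SRPRA and SRPRB were called higher in TN and no other protein of the list was called. Here 11.8% of all tested genes were called higher and 27.1% in either direction.

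The proteins of the 7SK complex likewise gave 0 calls of 7 in both comparisons by edgeR and by DESeq2, with medians of 0.19 in OA and 0.05 in TN. Over all tested genes, edgeR called 4.48% in OA and 6.99% in TN, and DESeq2 called 13.1% and 15.0%. An unadjusted p under 0.05 was found for 0 in OA and 1 in TN, beside 23.3% and 24.3% of all tested genes. HEXIM1, the main inhibitor of P-TEFb, was at 0.19 (SE 0.24) in OA and 0.10 (SE 0.23) in TN. HEXIM2, its relative, was at 0.42 (SE 0.39) in OA and 0.88 (SE 0.30) in TN. HEXIM2 was the 1 of 7 called in TN with the replicate block, and it was higher. Beside it, 11.8% of all tested genes were called higher and 27.1% in either direction. LARP7, which protects the end of 7SK, was at -1.03 (SE 0.61) in OA and -0.50 (SE 0.68) in TN. CDK9, the kinase of P-TEFb, was at 0.50 (SE 0.36) and 0.36 (SE 0.27).

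Proteins of RNase P and RNase MRP are the partners of RMRP and RPPH1. In OA, 2 of 10 tested were called lower and none higher, with a median of -0.45. Of all tested genes, 4.48% were called in either direction, and 253 of 14681 were called lower. In TN, 1 of 10 was called lower, with a median of -0.42. Here 6.99% of all tested genes were called in either direction, and 482 of 14432 were called lower. In each comparison 3 of 10 had an unadjusted p under 0.05, all lower, beside 23.3% and 24.3% of all tested genes. DESeq2 called 3 in OA and 1 in TN, all lower, beside 13.1% and 15.0%. With the replicate block 3 of 10 were called lower in TN and none higher. Of all tested genes, 15.3% were called lower and 27.1% in either direction. POP1, the large subunit shared by both enzymes, was at 85.3, 108, and 97.4 CPM in OActrl 1, 2, and 3 and at 19.9, 18.8, and 29.2 CPM in OA 1, 2, and 3. It was at 94.9, 84.5, and 83.6 CPM in TNctrl 1, 2, and 3 and at 30.4, 23.9, and 29.9 CPM in TN 1, 2, and 3. Treated libraries were far below DMSO libraries in both, and POP1 fell by 2.10 (SE 0.27, adjusted p = 0.0157 by edgeR) in OA and by 1.64 (SE 0.20, adjusted p = 0.0066 by edgeR) in TN. RPP30, which also belongs to both enzymes, fell by 1.14 (SE 0.24, adjusted p = 0.0400 by edgeR) in OA and was at -0.66 (SE 0.21) in TN. Leaving out OActrl 1, 2, or 3 ended the calls of POP1 and RPP30 in OA, and leaving out OA 3 that of RPP30. The call of RPP30 was also lost under total counts, scaling to ACTB, and GC offsets.

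The machinery that transcribes the members was examined in a pair of lists. Of 13 Pol III subunits, 0 were called by edgeR in either comparison, beside 4.48% and 6.99% of all tested genes. The medians were -0.05 in OA and -0.19 in TN. In each comparison 2 of 13 had an unadjusted p under 0.05, beside 23.3% and 24.3% of all tested genes. DESeq2 called 0 in OA and 2 in TN, beside 13.1% and 15.0%. POLR3K was at -1.02 (SE 0.40) in OA and -1.10 (SE 0.27) in TN, and POLR3G, a subunit enriched in stem cells, was at -1.31 (SE 0.71) and -0.996 (SE 0.60). Of 20 factors that recruit or regulate Pol III, 0 were called by edgeR in OA and 1 in TN, beside 4.48% and 6.99% of all tested genes, with medians of -0.35 and -0.23. An unadjusted p under 0.05 was found for 2 in OA and 4 in TN, all lower, beside 23.3% and 24.3% of all tested genes. DESeq2 called 1 in each, beside 13.1% and 15.0%. The gene called in TN was GTF3C4, a subunit of the initiation factor TFIIIC, which fell by 0.80 (SE 0.19, adjusted p = 0.0478 by edgeR) in TN. Its call ended when TNctrl 1, 2, or 3 or TN 2 or 3 was left out, and under scaling to ACTB, no filter, and GC offsets. SSB, the La protein that binds the 3′ ends of new Pol III transcripts, was at -1.44 (SE 0.68) in OA and -0.94 (SE 0.58) in TN. With the replicate block, 5 of 13 subunits and 6 of 20 factors were called lower in TN and none higher, where 15.3% of all tested genes were called lower and 11.8% higher.

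**Figure D5:**
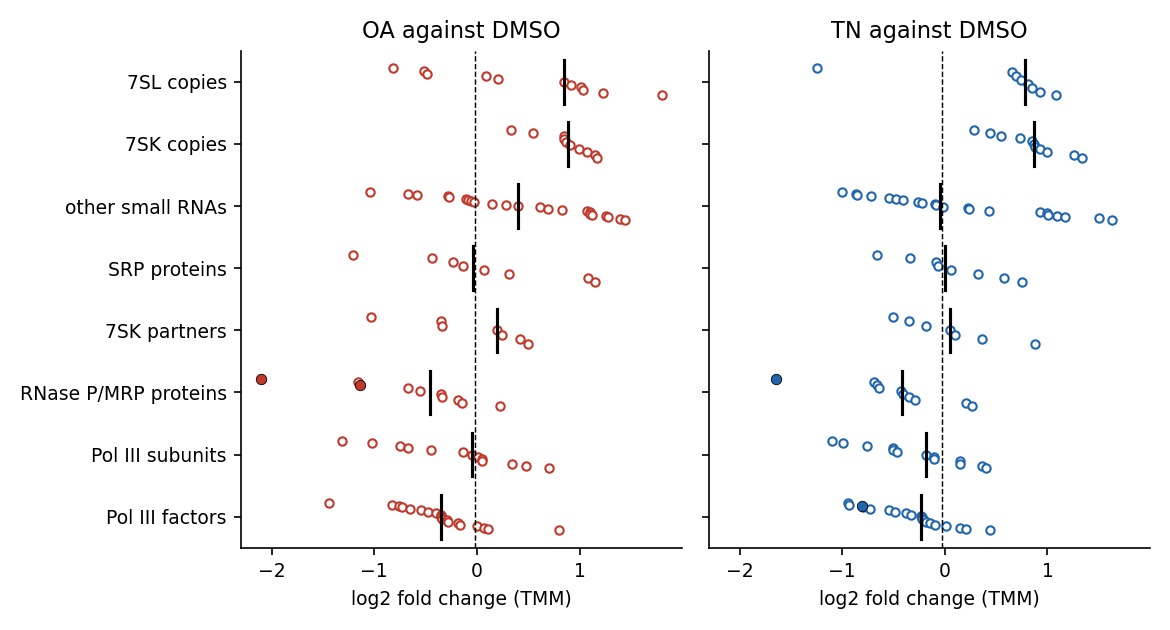
TMM log2 fold changes of the tested genes of each list in OA and TN, each circle 1 gene, filled where the adjusted p was under 0.05, with the list median as a solid line and the median of all tested genes as a dashed line. Copies of 7SL and 7SK lie mostly to the right, with medians of 0.84 and 0.88 in OA and 0.78 and 0.87 in TN, and the filled circles are POP1 and RPP30 in OA and POP1 and GTF3C4 in TN.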

How the data were processed

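RNA-seq libraries of HCT116 cells treated with OA or TN and their own DMSO controls were analysed, 3 per group. The authors checked reads with FastQC 0.11.5, aligned them to hg38 with STAR 2.7.9, counted them per gene with Gencode 32, and deposited the raw counts. The strand column used for counting is not given in the sources used here. The deposited tables of the authors' own DESeq2 1.30.1 comparisons were not used. The members and lists were chosen with earlier results of these data known.

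Counts were scaled by TMM after filterByExpr, and edgeR 4.0.16 (R 4.3.3) gave the two-sided quasi-likelihood tests for each stressor separately. P-values were adjusted by the Benjamini-Hochberg method over every gene tested, with a threshold of 0.05. Without information on the cultures beyond the labels, p-values measure the spread between these libraries. Shares are percentages of all counts in a library, and intervals and the floor of 3 counts cover counting error only. No 2 libraries of a group agreed within sampling noise, as the chi-square statistic per row was at least 6.25. In counts simulated with the same dispersion for every gene, the test recovered 31.3% of genes changed by a factor of 1.5 in OA and 32.8% in TN. For a factor of 2 it recovered 89.6% and 97.0%. The simulation held no GC or replicate effects and changed only genes with many counts. These shares therefore do not carry over to the real libraries.

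Replicate numbers stand in the labels of all groups. In TN, deviations from group means correlated across genes by 0.64, 0.41, and 0.43 within numbers, each over 0.1, and the TN libraries were therefore treated as paired by number. TNctrl 3 correlated as closely with TN 2 (0.44) as with TN 3, and TNctrl 2 correlated by 0.38 with TN 3. The labels do not say that the libraries are pairs, so values with the block in TN rest on this assumption. Named genes were the members, at most 4 genes with the lowest p of each list and comparison, the 5 copies of 7SL and 2 of 7SK with the most counts, the 10 largest shares, ACTB, GAPDH, MALAT1, NEAT1, MT-RNR1, MT-RNR2, and the 5 genes most like RN7SL1. A likeness to RN7SK or RMRP could not be computed. Other small RNAs named for a count of 0 were chosen after their values were seen. Coordinates and shares of stretches that occur once come from hg38 with GENCODE 44. Some items, among them the sequences of the genes and their promoters, are not reported here. Alternatives were other scalings, filters, and tools, the replicate block, 1 fit of 12 libraries, GC offsets, and leaving out each library.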

Additional observations from a re-analysis of the deposited data

How the results depend on the processing

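The number of genes called at an adjusted p under 0.05 by edgeR was 658 in OA and 1009 in TN, and the following settings moved it. In OA, scaling to ACTB gave 1425, no filter 1572, the replicate block 3914, DESeq2 1927, a fit of 12 libraries together 1682, GC offsets 2361, and GC offsets with the replicate block 3768. In TN, no filter gave 1648, the replicate block 3915, DESeq2 2162, GC offsets 3137, and GC offsets with the replicate block 5366. Leaving out 1 library gave 3 to 1179 in OA and 151 to 2361 in TN. In OA the count was 3 without OActrl 2 or OActrl 3, 5 without OActrl 1, 91 without OA 3, and 1179 without OA 1. In TN it was 151 to 473 without any library other than TN 1 and 2361 without TN 1. The cause was not tested. In OA, deviations of same-numbered libraries correlated by 0.62, 0.54, and 0.09, the last under the limit of 0.1, so the numbers were not taken to pair the libraries. OActrl 3 did not correlate best with OA 3, nor TNctrl 3 with TN 3.

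The difference in the share of the 6 members kept its direction when 1 library was left out, with 3.23 to 8.46 points in OA and 2.91 to 5.17 in TN. Without RN7SL1 it was 0.274 points in OA and 0.156 in TN. The mean of differences within replicate numbers, the counterpart of a replicate block, was 6.0 and 4.28 points. The share of RN7SL2 was 0 under every setting. The difference in the share of RN7SL3 ranged from -2.62 to -0.61 points in OA and from -2.12 to -0.86 in TN with 1 library left out. The median fold change over genes under total counts ranged from -0.34 to -0.09 in OA and from -0.25 to -0.09 in TN with 1 library left out, and TMM moved it to -0.031 in TN. RN7SL1 kept a positive log2 fold change under every setting, from 0.59 to 1.66 in OA and from 0.59 to 1.197 in TN. RN7SL3 was at -0.20 without OA 2 and -0.043 without TN 1, and was positive under the other settings.

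Of the other genes with log2 fold changes given above, these changed sign. In OA, SRP14 was at 0.20 under ACTB scaling and 0.037 with GC offsets, and HEXIM1 at -0.023 under total counts. GAPDH in OA was at -0.22 under total counts, -0.11 without the members in the totals, -0.052 in the fit of 12 libraries, -0.12 with GC offsets, and -0.14 with offsets and the block. In TN, HEXIM1 was at -0.075 under total counts and -0.0045 without the members in the totals, and GAPDH at -0.10 and -0.019 under the same settings, -0.038 with GC offsets, and -0.056 with offsets and the block. With 1 library left out, CDK9 ranged from -0.025 to 0.70, HEXIM2 from -0.075 to 0.67, and GAPDH from -0.31 to 0.27 in OA. In TN, LARP7 ranged from -0.90 to 0.012, HEXIM1 from -0.065 to 0.18, and GAPDH from -0.39 to 0.33. Some named genes not described above changed sign as well. Under scaling to ACTB in OA, CCNT1 went from -0.35 to 0.062 and ACTG1 from -0.45 to 0.042. None of these values belongs to a gene called by the main test.

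RN7SL1 and RN7SL3 stood far above the floor of 3 counts in every library. For RN7SL2, RN7SK, RMRP, and RPPH1, values at or under 3 counts give no level.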
